A study of Mus musculus with 336 samples.

Results

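Bile acid synthesis and transport were followed through 10 genes of the mouse liver. They are 6 synthetic enzymes (Cyp7a1, Cyp7b1, Cyp8b1, Cyp27a1, Baat and Slc27a5), 2 canalicular transporters (Abcb11 and Abcc2) and 2 basolateral transporters (Slc10a1 and Slco1b2). They were chosen by name, as 10 of 47632 gene rows in the liver slice table and of 47631 in the short liver table, and all 10 identifiers were found in both. The series holds 336 sequencing runs of Bmal1-/- (KO) and wild-type (WT) mouse liver and skin fibroblasts on a C57BL/6 background. The fibroblast runs were not used here. KO mice lack Bmal1, the core clock gene that the files list as Arntl, and are described by the labels as Bmal1-/- with no Cre or tissue restriction.

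The main course used ex-vivo liver slices from adult KO and WT mice, about 500 micron thick and held on membrane discs. Slices of both genotypes had received 100 nM dexamethasone, a synthetic glucocorticoid that synchronizes clocks, for 15 min. Harvest began 48 h after that treatment and went on every 3 h, at labelled times CT00 to CT69, which gives 24 times per genotype. The slice table holds 1 column per genotype and time, and 3 sequencing runs share each column, so a single time has no replicate value and the spread was taken over times. The second, short course was labelled mouse liver, with no age, and sampled at T00, T06, T12 and T24 with 3 replicate numbers per genotype, each made of 2 runs. For KO replicate 3 at T00, 1 of the 2 runs carries T06 in its time point label but T00 in its title and column name, and T00 was used. Its samples carry the same protocol text as the slices, but the interval from the dexamethasone treatment to T00 is not given. Nothing in the labels ties replicate numbers or slices to separate animals, so the p-values measure the spread between these samples only.

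In the liver, cholesterol becomes bile acid by a classic route that opens with Cyp7a1, its rate-limiting enzyme, or by an alternative route that opens with Cyp27a1 and goes on with Cyp7b1. Cyp8b1 adds the hydroxyl group that makes cholic acid, Slc27a5 joins bile acids to coenzyme A and Baat then conjugates them, in mice mostly to taurine. Abcb11 (the bile salt export pump) and Abcc2 (a pump for conjugated organic anions) carry products into the canaliculus, while Slc10a1 (sodium-dependent) and Slco1b2 (sodium-independent) take bile acids up from blood at the basolateral side.

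Levels are in FPKM, fragments per length of transcript and depth of library, as the authors deposited them. The depth of each library is not given. From the smallest steps between values, the FPKM worth of 1 read differed by up to 6.09-fold between slice libraries and 6.14-fold between short course samples. Between libraries, log2 values correlated at 0.721 to 0.951 among slices and at 0.632 to 0.968 in the short course. As a check of the genotype labels, Arntl itself had a median of 4.07 FPKM in KO slices and 4.32 FPKM in WT slices, but reads outside the deleted part of the gene check nothing. Nr1d1, a clock gene that BMAL1 drives, had a median of 3.27 FPKM in KO slices against 15.1 FPKM in WT slices, and of 1.07 FPKM in KO against 38.6 FPKM in WT samples of the short course.

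The genotype question was asked first in the slices. The members did not part by role. Cyp8b1, Slc27a5, Abcb11, Slc10a1 and Slco1b2 were higher in KO slices, while Cyp27a1 and Abcc2 lay on the lower side by less than the size limit. A gene was called in limma where its adjusted p was below 0.05 and its difference in log2(FPKM + 1) was at least 1, a scale that understates the change of low genes. Of the 9 members whose mean reached 1 FPKM, 5 were called higher, against a background of 1.18% of 14566 genes, and 0 were called lower, against a background of 4.05%. The median difference was 1.00 over the 9 members and -0.34 over all genes tested, so each difference below is to be read against a general shift towards lower KO values. After median-of-ratios scaling, which brought the median of all genes to -0.0025, 6 members were called higher, with 3.55% of all genes called in either direction. In these bulk libraries, fewer cells of a type and less RNA per cell cannot be told apart.

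**Figure D1:**
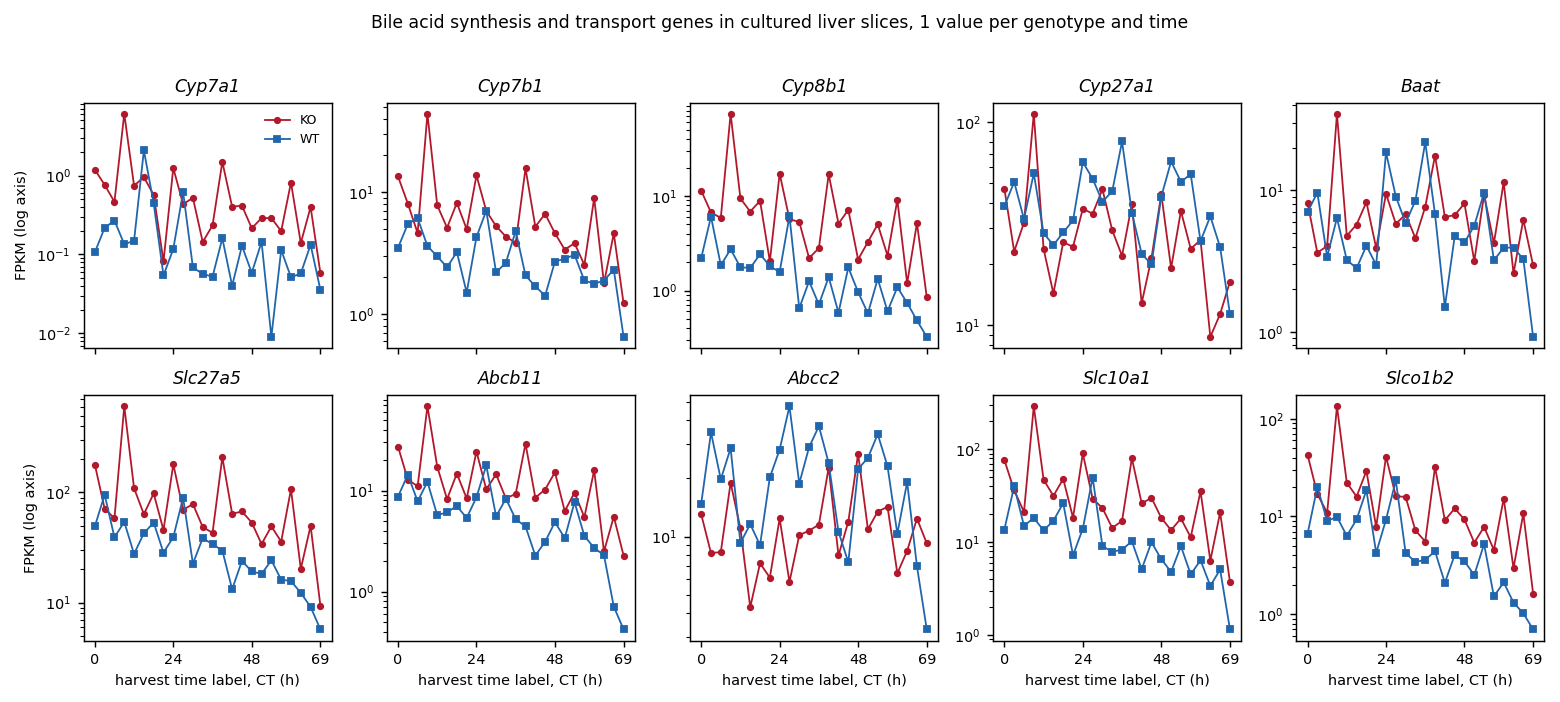
FPKM (log axis) of each of the 10 genes against the labelled harvest time in hours, KO red circles and WT blue squares, 1 value per genotype and time. Cyp8b1 lay higher in KO at 23 of 24 times and Abcc2 at 5 of 24, and the KO CT09 library holds the highest KO value of every gene except Abcc2.

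Among the enzymes, Cyp8b1 showed the largest difference. It ran from 0.850 FPKM at the lowest through a median of 5.50 to 74.2 FPKM at the highest in KO slices, against 0.323, 1.36 and 6.13 FPKM in WT slices. The groups overlapped, but 10 KO values lay above every WT value and 8 WT values lay below every KO value. Its KO minus WT difference was 1.47 ± 0.22 (SE, 24 times each, limma adjusted p = 1.85e-07). Slc27a5, the most abundant of the enzymes in KO slices, ran from 9.36 FPKM through a median of 63.8 to 607 FPKM in KO slices, against 5.72, 28.1 and 95.6 FPKM in WT slices. It was higher in KO at 22 of 24 times, by 1.29 ± 0.22 (adjusted p = 1.91e-06).

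Cyp7b1 had the same direction with a smaller size. Its KO values ran from 1.22 FPKM through a median of 5.14 to 43.9 FPKM, against 0.647, 2.66 and 7.04 FPKM in WT slices, and KO lay above WT at 20 of 24 times. The difference of 0.91 ± 0.17 (adjusted p = 1.14e-05) fell short of the size limit and passed it after median-of-ratios scaling (1.22) and with a pseudocount of 0.1 (1.11).

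Cyp7a1 was the lowest member in the slices and was left out of the test by the filter on low values. Its KO values ran from 0.0579 FPKM through a median of 0.425 to 6.08 FPKM, against 0.00900, 0.116 and 2.09 FPKM in WT slices. In reads, which the steps between values give to within 0.1 of a whole number in 46 of 48 libraries, that is 7 to 298 with a median of 46.5 in KO and 1 to 164 with a median of 11.5 in WT. KO lay above WT at 22 of 24 times. With no filter, the difference was 0.42 ± 0.12 on the log2(FPKM + 1) scale (adjusted p = 0.00449), under the size limit.

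Baat and Cyp27a1, the conjugating enzyme and the first enzyme of the alternative route, were not called. Baat ran from 2.59 FPKM through a median of 6.36 to 34.9 FPKM in KO slices, against 0.920, 4.50 and 21.96 FPKM in WT slices, a difference of 0.28 ± 0.22 (adjusted p = 0.239). Baat lay higher in KO at 16 of 24 times, and its difference stood above the median of all genes (-0.34). Cyp27a1 ran from 8.77 FPKM through a median of 25.0 to 110 FPKM in KO slices, against 11.3, 37.1 and 80.3 FPKM in WT slices. KO lay above WT at 8 of 24 times, and the difference of -0.47 ± 0.16 (adjusted p = 0.00754) was within the size limit and close to the median of all genes. It was -0.08 after median-of-ratios scaling, with an adjusted p of 0.70.

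Of the canalicular pumps, Abcb11 was called higher in KO slices and Abcc2 was not called. Abcb11 ran from 2.27 FPKM through a median of 10.3 to 68.6 FPKM in KO slices, against 0.422, 5.46 and 17.8 FPKM in WT slices. It was higher in KO at 22 of 24 times, by 1.00 ± 0.18 (adjusted p = 6.15e-06), just past the size limit, and by 0.89 without the KO CT09 library. Abcc2 ran from 4.30 FPKM through a median of 10.8 to 26.8 FPKM in KO slices, against 3.30, 20.0 and 47.3 FPKM in WT slices. Here 7 WT values lay above every KO value, and KO lay above WT at 5 of 24 times. Its difference was -0.70 ± 0.18 (adjusted p = 5.81e-04), under the size limit, and -0.33 (adjusted p = 0.124) after median-of-ratios scaling.

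A ratio of members within a library does not depend on how libraries are scaled. The ratio of Abcb11 to Abcc2 ran from 0.246 through a median of 1.31 to 3.61 in KO slices, against 0.101, 0.276 and 0.780 in WT slices. In 17 of 24 KO slices the ratio lay above every WT slice. The ratio of Cyp8b1 to Cyp27a1 had a median of 0.213 in KO slices against 0.0336 in WT slices, with 18 KO values above every WT value. The short course held the same order, with medians of 2.73 in KO and 1.40 in WT for Abcb11 to Abcc2, and of 0.229 in KO and 0.0606 in WT for Cyp8b1 to Cyp27a1. These 2 ratios, of 4 computed, were picked after the values were seen and are given as a description, with no test.

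**Figure D2:**
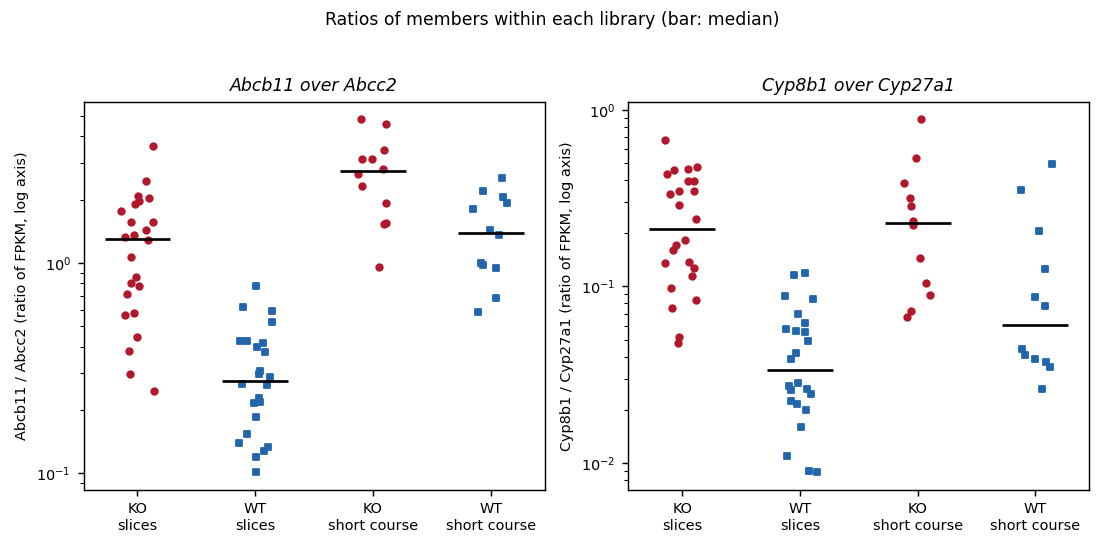
Ratio of FPKM within each library (log axis) for Abcb11 over Abcc2 and Cyp8b1 over Cyp27a1, KO left of WT in each course, 24 slices or 12 short course samples per genotype, with a bar at the median. The slice medians for Abcb11 over Abcc2 are 1.31 in KO and 0.276 in WT.

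Both basolateral carriers were higher in KO slices. Slc10a1 ran from 3.74 FPKM through a median of 24.8 to 292 FPKM in KO slices, against 1.15, 9.07 and 49.8 FPKM in WT slices, and Slco1b2 from 1.62 FPKM through 11.5 to 134 FPKM in KO slices, against 0.697, 4.24 and 23.3 FPKM in WT slices. Either gene lay higher in KO at 22 of 24 times. The differences were 1.40 ± 0.24 for Slc10a1 (adjusted p = 2.42e-06) and 1.26 ± 0.23 for Slco1b2 (adjusted p = 6.59e-06).

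The start of Abcb11 and that of Slco1b2, members that differed in the same direction, are shown because both hold a match to the same motif. RefSeq promoters on GRCm38.p6 were matched for 6 of the 10 members, as the 250 bases before the start. Capitals mark 2 motifs, searched on both strands after the sequences had been seen: an inverted repeat, GGNCA and TGACC with 1 base between them, of the arrangement that the bile acid receptor FXR (Nr1h4) binds, and an HNF1-like motif, GTTAA, any 2 bases, AT, any base and A. The Abcb11 promoter is chr2:69342617-69342866 on the minus strand and that of Slco1b2 is chr6:141629268-141629517 on the plus strand.
Abcb11: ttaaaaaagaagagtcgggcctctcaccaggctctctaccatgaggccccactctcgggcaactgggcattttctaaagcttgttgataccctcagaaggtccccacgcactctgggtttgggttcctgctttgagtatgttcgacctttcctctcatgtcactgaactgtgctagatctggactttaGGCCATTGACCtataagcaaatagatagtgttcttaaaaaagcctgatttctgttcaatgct
Slco1b2: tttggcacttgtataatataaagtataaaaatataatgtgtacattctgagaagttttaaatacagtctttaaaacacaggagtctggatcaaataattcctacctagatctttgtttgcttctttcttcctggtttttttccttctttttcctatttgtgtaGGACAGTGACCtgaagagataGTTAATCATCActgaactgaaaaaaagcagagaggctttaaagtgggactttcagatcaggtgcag

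The inverted repeat stood 62 to 52 bases before the start in Abcb11 and 87 to 77 bases before it in Slco1b2, where the HNF1-like motif followed at 66 to 56 bases. Of 32851 promoters of the same length, 0.198% held the inverted repeat and 0.791% the HNF1-like motif, and the motifs did not overlap each other here. Abcc2, which lay on the lower side in KO slices, held an HNF1-like match 75 to 65 bases before its start. No match to these motifs, to the E-box CACGTG (6.02% of promoters) or to the D-box TTANNTAA (5.43%) stood in the windows of Cyp8b1, Cyp27a1 and Slc10a1, and Abcb11, Abcc2 and Slco1b2 held no E-box or D-box match either. A match is a description of letters, not of a site in use. As the motifs were searched after the sequences had been seen, the shares do not measure how unlikely these matches are.

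Genes of other roles in the pathway came from lists chosen with earlier results known. Of 11 further synthesis enzymes tested, 2 were called higher in KO slices and 1 lower. Those higher were Cyp2c70 (1.43 ± 0.26), which makes muricholic acids in mice, and Akr1c6 (1.19 ± 0.25), and the one lower was Ch25h, cholesterol 25-hydroxylase (-1.08 ± 0.15). Among 9 further transporters, Slco1a4, another basolateral organic anion carrier, was called higher (1.10 ± 0.16), and among 10 regulators Hnf4a, a nuclear receptor that sets hepatocyte identity, was called lower (-1.27 ± 0.19). The list medians were -0.28 for the synthesis enzymes, 0.14 for the transporters and -0.53 for the regulators, beside -0.34 for all genes.

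Markers of cell types moved with genotype in the same libraries. Of 8 hepatocyte markers 3 were called higher in KO slices (Apoa2 by 1.98, Ttr by 1.08 and Apoc3 by 1.07), with a list median of 0.57. Of 12 macrophage markers 11 were called lower, with a median of -1.98, and of 9 fibroblast and stellate cell markers 6 were called lower, with a median of -1.38. Of 5 cholangiocyte markers tested 1 was called lower, and of 7 endothelial markers 0 were called. The summed level of the hepatocyte list ran from 2887 to 119786 FPKM in KO slices and from 1556 to 33248 FPKM in WT slices, and that of the macrophage list from 90.3 to 568 FPKM in KO and from 240 to 7018 FPKM in WT. No marker of these lists had a median under 0.1 FPKM on any day, and Alb was listed at 0 in the WT CT27 library.

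Most members followed the hepatocyte markers across libraries. Over 24 KO slices, the correlation of a member with the mean log2 level of 7 hepatocyte markers ran from 0.37 for Abcc2 to 0.98 for Slc27a5, and over 24 WT slices from 0.20 for Cyp7a1 to 0.93 for Abcb11, all libraries sharing their depth between the genes compared. That mean includes Apoa2, Ttr and Apoc3, each called higher in KO slices, so it is not free of genotype. With that mean as a covariate, an alternative chosen after seeing the data, Abcc2 was the 1 member called, and it was lower in KO (-1.05, adjusted p = 3.57e-07). That fit called 4.26% of all genes. Cyp27a1 stood at -0.85 and Baat at -0.33 in that fit. The other members kept a positive difference under the size limit, at 0.86 for Cyp8b1, 0.67 for Slc10a1, 0.60 for Slco1b2, 0.59 for Slc27a5, 0.44 for Abcb11 and 0.43 for Cyp7b1, with adjusted p between 1.19e-08 and 5.43e-04. Without the 6 slice libraries that correlated least with the others, 2 members were called higher, Cyp8b1 (1.16) and Slc10a1 (1.00), beside 4.57% of all genes in either direction.

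**Figure D3:**
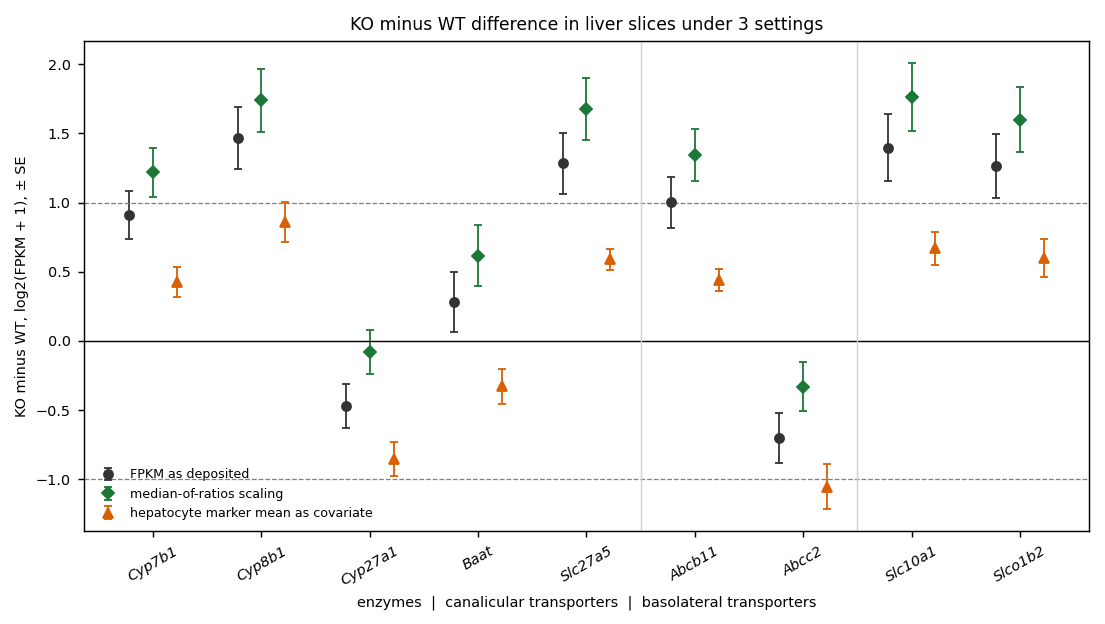
KO minus WT difference in log2(FPKM + 1) with its SE for the 9 members tested in slices, over 24 times per genotype, as deposited, after median-of-ratios scaling and with the hepatocyte marker mean as a covariate; dashed lines mark the size limit of 1. Abcc2 is the lowest under each of the 3 settings, and Cyp8b1 is the highest except after median-of-ratios scaling, where Slc10a1 stands at 1.76.

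Time in culture was compared next, as the 8 harvests of day 3 against the 8 of day 1. The uptake carriers had the largest estimated falls in log2(FPKM + 1) of the 9 members tested, in both genotypes. The fall of the enzyme Slc27a5, given below, lay within the SE of theirs in both genotypes. Slc10a1 had medians of 41.7, 27.9 and 15.8 FPKM on days 1, 2 and 3 in KO slices, and of 16.0, 9.54 and 4.94 FPKM in WT slices. It fell by 1.74 ± 0.45 in KO slices (adjusted p = 0.0141) and by 1.67 ± 0.45 in WT slices (adjusted p = 0.0151). Slco1b2 had medians of 19.6, 13.9 and 6.59 FPKM on the 3 days in KO slices and of 9.14, 4.13 and 1.81 FPKM in WT slices, and fell by 1.79 ± 0.44 in KO slices (adjusted p = 0.0110) and by 1.81 ± 0.44 in WT slices (adjusted p = 0.00864).

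Enzymes and pumps split between members that fell and members that held no call. In KO slices 5 of 9 members were called lower on day 3, against a background of 1.16% of all genes, and 0 higher, against 0.11%. Beside both carriers these were Slc27a5 (-1.48 ± 0.42), Cyp8b1 (-1.35 ± 0.40) and Cyp7b1 (-1.18 ± 0.32), while Abcb11 (-1.21 ± 0.39) missed the call with an adjusted p of 0.0530. WT slices had 4 members called lower, against a background of 0.927%, and 0 higher, against 0.762%. These were both carriers, Slc27a5 (-1.63 ± 0.42) and Abcb11 (-1.31 ± 0.39), while Cyp8b1 (-0.97 ± 0.40) had an adjusted p of 0.130.

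Cyp27a1, Baat and Abcc2 were called in neither genotype. Cyp27a1 changed by -0.56 ± 0.34 in KO and -0.04 ± 0.34 in WT slices, Baat by -0.30 ± 0.37 in KO and -0.19 ± 0.37 in WT, and Abcc2 by 0.37 ± 0.36 in KO and -0.15 ± 0.36 in WT. Cyp7a1 had daily medians of 0.754, 0.425 and 0.252 FPKM in KO slices and of 0.183, 0.0929 and 0.0579 FPKM in WT slices, with no test at these levels. The test of the genotype difference in these changes called 0 members and 0 of all genes (0%), with 1083 genes at an unadjusted p under 0.05 in limma and 3 genes called with the hepatocyte marker covariate. Estimates of that difference ran from -0.65 for Cyp7b1 to 0.52 for Abcc2.

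Hepatocyte markers also lay lower on day 3, though few were called. Of 8 such markers, 0 were called in KO slices, with a median change of -1.19, and 2 were called lower in WT slices (Ttr and Apoa2), with a median of -1.05. Their summed level had medians of 19268, 16081 and 10266 FPKM on days 1, 2 and 3 in KO slices, and of 13939, 13920 and 7327 FPKM in WT slices. Of 12 macrophage markers, 0 were called on day 3 in KO slices, with a median change of 0.39, and 9 were called higher in WT slices, with a median of 1.70. The part of either list in the members' changes was not tested. With the hepatocyte marker mean as a covariate, Abcc2 was the 1 member called in KO slices, higher on day 3 by 1.01, and 0 were called in WT slices, beside 0.405% of all genes in KO and 0.748% in WT. Without the KO CT09 library, the calls in KO slices were Slc10a1 (-1.37) and Slco1b2 (-1.44) alone, beside 0.749% of all genes. Of the other transporters, Slco1a1 fell in both genotypes (-1.18 ± 0.33 in KO and -1.25 ± 0.33 in WT), and Slco1a4 (-1.28 ± 0.28) and Slco2b1 (-1.13 ± 0.29) were called in KO slices.

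**Figure D4:**
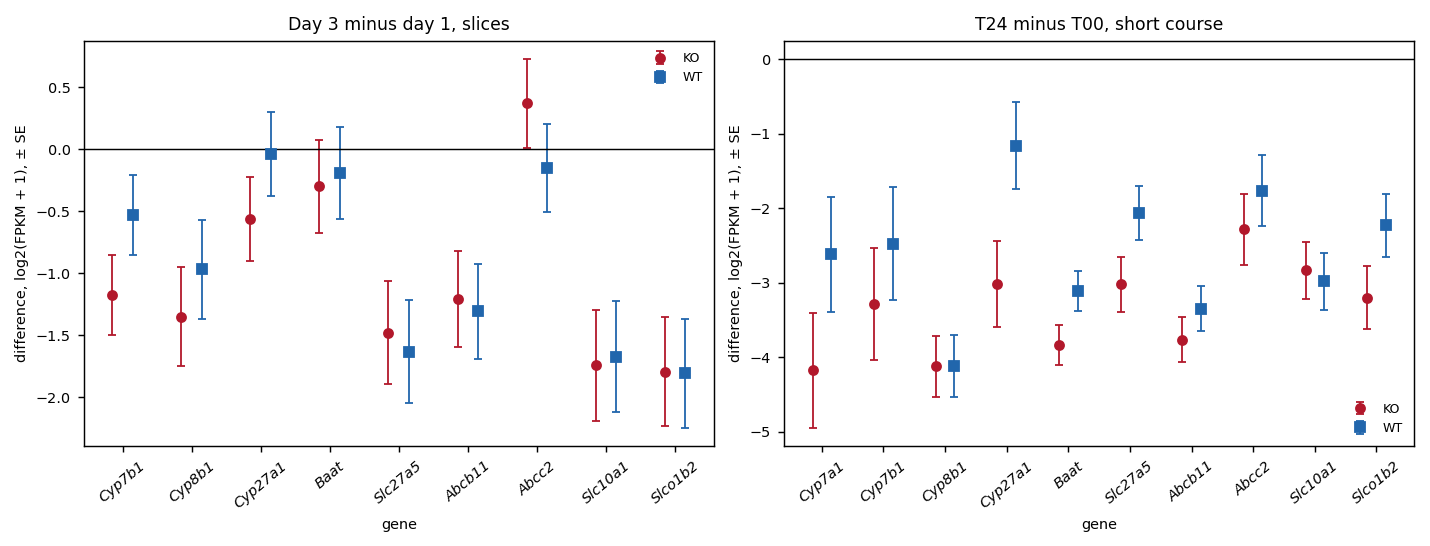
Differences in log2(FPKM + 1) with their SE for each member, KO left of WT, for day 3 minus day 1 in slices (left, 8 harvests each) and T24 minus T00 in the short course (right, 3 samples each). Slco1b2 fell by 1.79 in KO and 1.81 in WT slices, and all 10 members lie below 0 in both genotypes of the short course.

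A 24 h rhythm was sought in each genotype with cosine and sine terms beside a linear trend. No member was called in KO slices, against 11.2% of 14224 genes, and none in WT slices, against 1.98% of 14631 genes. The genotype difference of the rhythm was called for 0 members, against 4.13% of all genes. In limma 1 member had an unadjusted p under 0.05 in KO slices, beside 4162 of 14224 genes. For WT slices it was 4 members, beside 2852 of 14631 genes. The test of the difference had 0 members at that level, beside 3334 of 14566 genes.

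The members nearest to a call in WT slices were the pumps and Cyp27a1. Their fitted amplitudes, from mean to peak in log2(FPKM + 1), were 0.51 ± 0.13 for Abcb11 (adjusted p = 0.0691, peak at 5.76 h), 0.74 ± 0.19 for Abcc2 (adjusted p = 0.0745, peak at 6.13 h) and 0.54 ± 0.14 for Cyp27a1 (adjusted p = 0.0806, peak at 6.30 h). With day as a factor in place of the trend, all 3 were called, with adjusted p of 0.00695 for Abcb11, 0.0201 for Abcc2 and 0.0288 for Cyp27a1. That setting called 13.2% of all genes in WT slices. No member was called without the 6 libraries of low correlation, beside 0.384% of all genes. Each of the 3 genes had its lowest WT value in WT CT69, which is among those 6. Without day 1, 2 or 3 no member was called either, beside 0%, 0.171% and 0% of all genes. The KO amplitudes of these 3 genes were 0.17 ± 0.22, 0.17 ± 0.16 and 0.50 ± 0.17, with adjusted p of 0.855, 0.748 and 0.125. Of 8 further transporters tested in WT, Abcb4, the phospholipid pump of the canaliculus, was called with an amplitude of 0.91 ± 0.18 (adjusted p = 0.0327). In WT slices 0 of 8 hepatocyte, 7 of 12 macrophage and 5 of 7 endothelial markers were called rhythmic. Their part in the member amplitudes was not tested.

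In the short course, all 10 members lay far higher at T00 than at T24 in both genotypes, with every T24 sample below every T00 sample of its genotype. The share of all genes that part in this way was not counted. Cyp8b1 averaged 167 ± 97 FPKM at T00, 23.3 ± 9.7 at T06, 15.7 ± 6.2 at T12 and 8.27 ± 3.83 at T24 in KO samples (SD, n = 3 each), and 86.9 ± 25.5, 13.4 ± 3.1, 10.1 ± 1.0 and 3.96 ± 0.96 FPKM at the same times in WT samples. Abcb11 averaged 225 ± 38, 106 ± 26, 59.3 ± 24.4 and 15.7 ± 3.7 FPKM in KO samples, and 190 ± 19, 53.0 ± 23.7, 46.3 ± 4.4 and 17.7 ± 0.6 FPKM in WT samples. Slc10a1, the sodium-dependent carrier, averaged 485 ± 43 FPKM at T00 and 74.7 ± 36.1 FPKM at T24 in KO samples, and 505 ± 89 FPKM at T00 and 62.7 ± 8.4 FPKM at T24 in WT samples.

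The change over the 4 times was called for 10 of 10 members in KO samples and for 8 of 10 in WT samples. Each call and adjusted p came from a joint F test of T06, T12 and T24 against T00, not from the T24 difference alone. The background was 72.2% of 12547 genes in KO and 64.4% in WT, so most genes changed over these times. The median T24 minus T00 difference was -3.24 over the members in KO and -2.55 in WT, beside -0.01 and 0 for all genes. The KO changes ran from -4.18 ± 0.77 for Cyp7a1 to -2.28 ± 0.48 for Abcc2. The WT changes ran from -4.12 ± 0.41 for Cyp8b1 to -1.16 ± 0.58 for Cyp27a1, whose adjusted p was 0.295, and Cyp7b1 (-2.47 ± 0.76) missed the call with an adjusted p of 0.0510. The genotype difference of the change was called for 0 members, against 1.75% of all genes. In limma 0 members had an unadjusted p under 0.05 in that test, beside 2291 of 12547 genes.

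The other lists of pathway genes mostly moved likewise. In KO samples 11 of 11 further synthesis enzymes, 11 of 11 transporters and 11 of 11 regulators were called, and in WT samples 10 of 11 of each. Against the rest, Ch25h was higher at T24 (1.81 ± 0.30 in KO, 3.36 ± 0.30 in WT), as was Abcc4, a basolateral export pump (3.98 ± 0.38 in KO, 2.09 ± 0.38 in WT). Slc10a2, the sodium-dependent carrier of the ileum and bile duct, was called for change over the 4 times, with T24 minus T00 differences of 0.18 ± 0.38 in KO, within its SE, and 1.12 ± 0.38 in WT. Of 8 hepatocyte markers, 7 were called in KO samples, all lower at T24, and 6 in WT samples, 5 of them lower and Alb higher. All 5 cholangiocyte markers tested were called in both genotypes and were higher at T24. Macrophage markers were called in 10 of 12 cases in either genotype, 5 higher and 5 lower at T24. Endothelial markers were called in 6 of 7 cases in KO samples (3 higher, 3 lower) and 7 of 7 in WT samples (4 higher, 3 lower), and fibroblast and stellate cell markers in 2 of 9 in KO and 1 of 9 in WT, all higher. The summed cholangiocyte level had a median of 39.8 FPKM at T00 and 219 FPKM at T24 in KO samples, and of 38.6 FPKM at T00 and 182 FPKM at T24 in WT samples, with Cftr under 0.1 FPKM at T00. With the hepatocyte marker mean as a covariate, 6 members were called in KO samples and 6 in WT samples, beside 50.8% of all genes in KO and 49.4% in WT. Cyp8b1, Baat, Abcb11, Slc10a1 and Slco1b2 were called for change over the 4 times in both, with negative T24 minus T00 differences. Cyp27a1 was called in WT with a positive T24 minus T00 difference of 1.29. Alb was listed at 0 in 1 KO and 5 WT samples, among them every WT sample at T00.

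**Figure D5:**
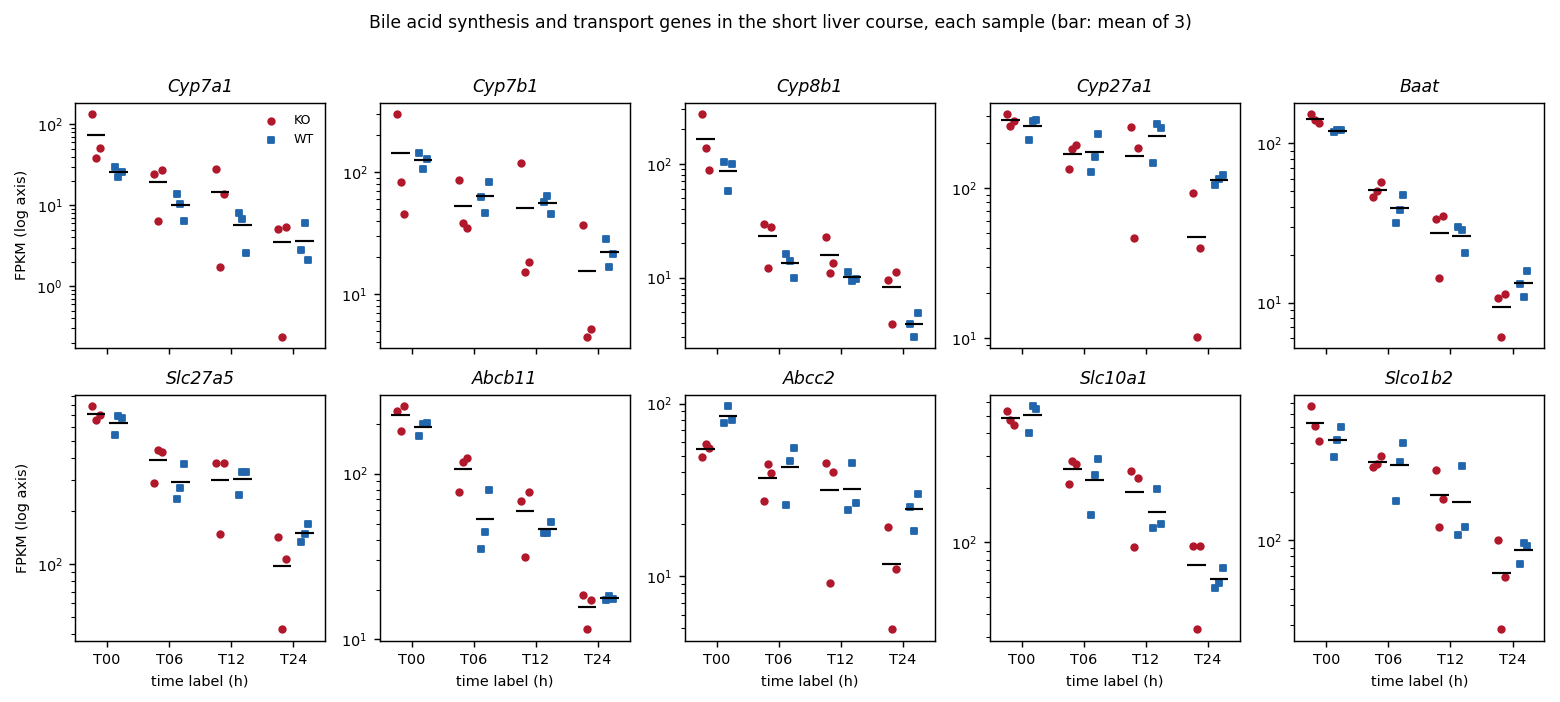
FPKM (log axis) of each member in every sample of the short course at T00, T06, T12 and T24, KO red circles left of WT blue squares, with a bar at the mean of 3 samples. Every gene has its lowest mean at T24 in both genotypes, and KO replicate 2 lies far below the other KO samples at T24 for Cyp7a1, Cyp27a1 and Slc27a5.

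Between genotypes, the short course gave 1 call among the members at its 4 times. At T24 Cyp27a1 had 92.2, 10.2 and 39.6 FPKM in KO samples, against 105, 115 and 122 FPKM in WT samples. KO replicate 2 was the lowest. The difference was -1.71 ± 0.58 (limma adjusted p = 0.0482), against a background of 10.4% of genes called lower and 7.5% called higher at T24. It was lost with no filter on low values and on leaving out KO replicate 2 or 3 or any 1 WT replicate. Without KO replicate 2 at T24 alone it was -0.90, with an adjusted p of 0.284. That sample held the lowest KO value of all 10 members, and its hepatocyte markers summed to 8933 FPKM against 18325 and 20387 FPKM in the other KO samples.

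At T00, T06 and T12 no member was called, against 4.45%, 1.67% and 2.4% of all genes. In limma 1987 of 12547 genes had an unadjusted p under 0.05 at T00, 1506 at T06 and 1936 at T12. Members among them numbered 0 at T00, 1 at T06 and 0 at T12. The 1 was Abcb11 at T06, with 77.0, 118 and 124 FPKM in KO samples, against 35.0, 44.2 and 79.8 FPKM in WT samples. The groups overlapped by 1 value, and the difference was 1.05 ± 0.30 (adjusted p = 0.104). At T00 Cyp7a1 had 135, 38.5 and 50.99 FPKM in KO samples, against 29.6, 22.4 and 25.9 FPKM in WT samples. The difference was 1.29 ± 0.77 (adjusted p = 0.464). Abcc2 at T00 had 49.2, 58.3 and 55.6 FPKM in KO samples, against 77.0, 96.5 and 79.9 FPKM in WT samples. It lay on the lower side in KO, by -0.62 ± 0.48 (adjusted p = 0.619).

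Averaged over the 4 times within each replicate number, 3 KO against 3 WT values, no member was called, against 4.46% of all genes. The estimates ran from 0.71 ± 0.26 for Cyp8b1 (adjusted p = 0.187) to -0.60 ± 0.59 for Cyp7b1. In limma 2 members had an unadjusted p under 0.05, beside 2770 of 12547 genes. They were Cyp8b1 and Abcc2 (-0.54 ± 0.23), in the same directions as in the slices. Cyp7b1 and Slc27a5 lay on the lower side in KO here, against the slices. The median over the members was 0.02, against 1.00 in slices. KO replicate 1 decided the calls on Cyp7b1. That gene had 36.8 FPKM in KO replicate 1 at T24, 4.44 and 5.12 FPKM in the other KO samples, and 28.3, 16.8 and 21.1 FPKM in WT samples. Without KO replicate 1 Cyp7b1 was called lower at T12 (-1.66), at T24 (-1.97) and over the 4 times (-1.35), and Slc27a5 (-1.14) and Abcc2 (-1.57) were called lower at T24 beside Cyp27a1 (-2.42). That setting called 2.59% of all genes at T12, 22.3% at T24 and 2.47% over the 4 times.

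Slco1a4, the carrier that was higher in KO slices, differed between genotypes at 3 of the 4 times. It was called higher in KO at T00 (2.05 ± 0.42), T06 (1.69 ± 0.42) and T12 (2.18 ± 0.42), and over the 4 times (1.64 ± 0.21). Ch25h was called lower in KO over the 4 times (-0.76 ± 0.12), as it was in slices. The nuclear receptor Nr1i2 (PXR) was called lower at T12 (-1.10 ± 0.26) and T24 (-1.74 ± 0.26), and Hnf4a was called lower at T24 (-1.25 ± 0.37). At T24, 6 of 11 regulators, 3 of 11 further synthesis enzymes and 1 of 11 further transporters were called lower in KO, against 10.4% of all genes. Of the further transporters 1 was called higher, against 7.5% of all genes. Without KO replicate 2 at T24 alone, 955 genes were called at T24 in place of 2241, and these lists were not followed in that fit. At T24, 0 of 8 hepatocyte and 4 of 12 macrophage markers were called lower in KO, and their part in these differences was not tested.

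Within a genotype the members varied together. Over the 45 pairs of members the median correlation of log2 values was 0.83 in KO slices and 0.63 in WT slices, and 0.90 in KO and 0.89 in WT samples of the short course. The pair most alike was Slc27a5 and Slc10a1 in KO slices (0.98), and the least alike was Cyp7a1 and Cyp27a1 in WT slices (-0.11). Over all 48 slices, the genes most like the mean of the standardized members were Masp2 (0.98), Cfi, Ces2e, Gc and Cpn2 (0.97 each), out of 9565 genes whose mean reached 5 FPKM. Those most like Cyp7a1 in slices were Il1rap (0.85), Cpq (0.83), B2m (0.82), Clec2d and Sdc2 (0.81 each). Over the 24 samples of the short course, the genes most like the members' mean were Cyp4v3, Kmo, Cyp2j5, Cideb and Aqp9 (0.99 each), and those most like Cyp7a1 were Gm2788 (0.95), Pxmp4 and Tstd3 (0.93 each), Akr1e1 and Lancl1 (0.92 each). Points in these correlations share libraries and their depth, so the values are descriptive.

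On GRCm38, the build that the submitters' processing notes name, and by GENCODE vM21, the members were spread over 9 chromosomes. The enzyme genes are Cyp7a1 (chr4:6265612-6275633), Cyp7b1 (chr3:18071950-18243338), Cyp8b1 (chr9:121914356-121916305), Cyp27a1 (chr1:74713574-74737892), Baat (chr4:49489422-49506557) and Slc27a5 (chr7:12988346-12998192). The transporter genes are Abcb11 (chr2:69238282-69342616), Abcc2 (chr19:43782192-43840740), Slc10a1 (chr12:80953183-80968705) and Slco1b2 (chr6:141629518-141686646). Cyp27a1, Abcc2 and Slco1b2 lie on the plus strand and the other members on the minus strand.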

How the data were processed

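Per the labels' protocols, poly(A) RNA from liver was made into stranded libraries and read as single ends of 50 bases. The authors deposited FPKM values, with 3 runs to a slice column and 2 to a short course column. The submitters' processing notes name TopHat2 2.1.0, Cuffdiff and GRCm38. Aligner settings, like the joining of runs, were not given in the sources used here. Of the IDs, 47218 of 47632 (slices) and 47217 of 47631 (short course) had a symbol. All 48 and 24 columns of the liver tables were used, and fibroblasts were not analysed here.

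The deposited FPKM values were taken as log2(FPKM + 1), with a pseudocount of 1, and fitted in limma 3.58.1 (R 4.3.3, statmod 1.5.0) with a variance trend, over genes averaging 1 FPKM or more. P-values were adjusted by Benjamini-Hochberg over all genes tested. Slice levels were fitted with 24 h terms and a linear trend by genotype, day changes as 6 genotype and day groups, and the short course as 8 genotype and time groups with no block. The mean over its 4 times compared 3 KO with 3 WT values. Calls needed an adjusted p below 0.05 and, for slice levels and day changes within a genotype, a difference of at least 1. The code was tested on simulated data. FPKM are relative to the rest of a library, so a shift in abundant genes moves all others.

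The members and lists were chosen with earlier results of these data known. All members are named, with up to 4 called genes of smallest p among the other pathway genes of a comparison and the 5 genes most like the members. Outside that rule, Akr1c6 in slices, Hnf4a at T24 and Abcc4 and Slc10a2 over time were named after their values were seen. Alternatives were a pseudocount of 0.1, no filter, median-of-ratios scaling, no size limit, left-out libraries, days or replicates, other time terms, a time point or replicate block and a random effect. The hepatocyte covariate (the mean of Ttr, Apoa1, Apoa2, Apoc3, Serpina1a, Fgb and Tat, never listed at 0), the fit without KO CT09 and that without KO replicate 2 at T24 alone were chosen after seeing the data.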

Additional observations from a re-analysis of the deposited data

Results flagged for a closer look

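Slice values of each member were compared within a genotype and day, 60 groups of 8 harvests, and a value was marked where its gap to the nearest harvest passed Dixon's 95% critical value. Chance marks about 1 in 20 such groups, and 10 were marked. The KO CT09 library held 4 of them on day 1, with 6.08 FPKM for Cyp7a1 (next highest 1.19), 43.9 FPKM for Cyp7b1 (13.4), 74.2 FPKM for Cyp8b1 (11.4) and 34.9 FPKM for Baat (8.27). The WT CT27 library held 3 of them on day 2, with 0.621 FPKM for Cyp7a1 (next highest 0.160), 6.13 FPKM for Cyp8b1 (1.75) and 49.8 FPKM for Slc10a1 (13.97). On day 1, Cyp7a1 reached 2.09 FPKM in WT CT15 (next highest 0.445) and Cyp8b1 reached 6.06 FPKM in WT CT03 (2.73). On day 3, Cyp7b1 was lowest in WT CT69, at 0.647 FPKM, with 1.76 FPKM in the next.

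The hepatocyte markers Alb (34438 FPKM) and Ttr (10289 FPKM) had their highest slice values in KO CT09 too, while in WT CT27 Ttr had its highest WT value (2266 FPKM) and Alb was listed at 0. Their part in the marked member values was not tested.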

How the results depend on the processing

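Of 1530 member values under the alternatives, 1377 kept direction and call, 51 lost a call, 28 gained one and 74 changed sign. Rhythm amplitudes have no sign and were counted by call alone. Values not called in the report that stayed uncalled count as kept. Of the sign changes, 3 were of values called in the report and 2 gave values that were called. The causes were not tested.

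The KO minus WT count in slices (5 members) was 2 without the 6 libraries of low correlation, 8 with no size limit, which called 72.8% of all genes, and 1 with the hepatocyte covariate. The day 3 count in KO slices (5) was 3 with no filter, 3 without those 6 libraries, 1 with the covariate and 2 without KO CT09, and that in WT slices (4) was 0 with the covariate. The WT rhythm count (0) was 2 with no trend term (5.44% of all genes called) and 3 with day as a factor (13.2%). In the short course, the T06 count (0) was 1 with the covariate (2.61% of all genes), the T24 count (1) was 0 with no filter and without KO replicate 2 at T24 alone, the count over 4 times (0) was 1 with 12 samples of a genotype as separate (15.7%), and the change over time in KO (10) was 6 with the covariate (50.8%). Leaving out 1 replicate gave 0 to 1 members at T12, 0 to 4 at T24 and 0 to 1 over 4 times. For the change over time it gave 9 to 10 members in KO, beside 7537 to 9010 of all genes. In WT it gave 6 to 9 members (8 in the report), beside 5799 to 8521 of all genes.

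With the covariate, signs turned in slices for Baat in KO minus WT (-0.33), for day 3 minus day 1 in KO for Cyp27a1 (0.11) and Baat (0.57), in WT for Cyp7b1 (0.17), Cyp27a1 (0.59), Baat (0.61) and Abcc2 (0.44), and for the genotype difference of that change in Slc10a1 (0.0093). In the short course they turned for KO minus WT of Slc10a1 at T00 (0.082), Slco1b2 at T06 (-0.014), Baat at T12 (0.029), Cyp7a1 (0.44) and Abcb11 (0.20) at T24 and Slc27a5 over 4 times (0.12). Changes over time turned for Cyp27a1 (0.26 in KO, 1.29 in WT) and Abcc2 (0.085 in KO, 0.0081 in WT), and their genotype difference for Cyp8b1 (0.27) and Abcc2 (0.076).

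Without the 6 libraries, the day change was 0.017 for Baat in KO, and in WT 0.30 for Cyp27a1, 0.065 for Baat and 0.33 for Abcc2, with genotype differences of 0.089 for Slc10a1 and -0.022 for Abcb11. Without KO CT09 it was 0.017 for Baat in KO, with genotype differences of 0.028 for Cyp8b1, 0.21 for Baat and 0.30 for Slc10a1. That difference was also -0.071 for Slco1b2 after median-of-ratios scaling and 0.060 for Slc10a1 with a pseudocount of 0.1, which turned the Cyp8b1 difference over time too (0.11). Without KO replicate 2 at T24 alone, T24 values were 0.51 for Cyp7a1 and 0.012 for Abcb11, and the Cyp8b1 difference over time was 0.40.

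Leaving out 1 replicate turned KO minus WT values at T00 for Cyp27a1 (-0.0010 to 0.22), Cyp7b1 (-1.01 to 0.34) and Slc10a1 (-0.20 to 0.045). At T06 it did so for Abcc2 (-0.47 to 0.069), Cyp27a1 (-0.20 to 0.21), Slc10a1 (-0.049 to 0.47) and Slco1b2 (-0.20 to 0.38). At T12 the ranges were -0.63 to 0.46 for Abcc2, -0.23 to 0.39 for Baat, -1.19 to 0.021 for Cyp27a1, -0.34 to 0.32 for Slc27a5 and -0.072 to 0.66 for Slco1b2. At T24 they were -0.31 to 0.012 for Abcb11, -0.67 to 0.51 for Cyp7a1 and -0.15 to 0.61 for Slc10a1. Over 4 times they were -0.069 to 0.20 for Baat, -0.019 to 0.36 for Slc10a1, -0.20 to 0.14 for Slc27a5 and -0.20 to 0.21 for Slco1b2, and for the genotype difference of the change -0.63 to 0.34 for Cyp8b1 and -0.16 to 0.64 for Slc10a1.

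Counts over all genes ranged over the alternatives from 517 to 10603 for KO minus WT in slices (762 in the report), from 59 to 812 for day 3 in KO (185) and 109 to 1123 in WT (246), and for rhythm from 0 to 2734 in KO (1594), 0 to 1931 in WT (289) and 0 to 1652 for the difference (602). In the short course they ranged from 271 to 864 at T00 (558), 85 to 327 at T06 (210), 77 to 560 at T12 (301), 866 to 2788 at T24 (2241), 152 to 1971 over 4 times (560) and 23 to 429 for the difference of the change (220).

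Deviations of same-numbered samples correlated at -0.081 to 0.22 within KO, -0.023 to 0.11 within WT and -0.11 to 0.089 between genotypes. The median was 0.021 within KO and 0.041 within WT, against -0.017 and -0.021 for samples of different numbers. Correlations this low, over all genes, cannot tell whether samples of the same number share a source. With the replicate block, Cyp7b1 was called for change over time in WT (adjusted p = 8.15e-05 in limma), making 9 members, and no other member call changed. Over all genes, the block gave 233 calls over 4 times and 368 for the difference of the change. With 1 column per slice time, no slice value can be checked within a time, and read depth is not given for either course.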
